A study of Rattus norvegicus with 15 samples.

Results

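The microRNAs (miRNAs) rno-miR-455, rno-miR-140 and rno-miR-140* were followed in rat sciatic nerve before and after injury. They were chosen by name, as miRNAs of connective tissue that lie inside protein-coding genes, and they make up 3 of the 350 rat miRNAs on the array. The choice was made with their values known, so their levels and differences are given as a description, with no test. The measurements come from 15 arrays with 1 colour (cyanine 3), each carrying nerve RNA of adult male rats, and the strain is not given in the sources used here. The labels give 5 groups of 3 arrays. The first, called day 0 here, is normal nerve without injury. The others are nerve on days 1, 4, 7 and 14 after injury. The account of the injury differs between sources: the series text names a resection, with proximal nerve given in cm, whereas the treatment protocol names a crush, with damaged sections given in mm. Sample names speak of proximal stumps, the tissue label of the injury site. "Injury" stands for both here. Nothing in the labels says that the 3 arrays of a group came from separate animals, so standard errors and p-values cover only the spread among arrays of a group, which may be technical.

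A miRNA is a short RNA cut from a hairpin in a longer transcript, and it lowers the output of messenger RNAs that pair with its seed (bases 2 to 8). Either arm of the hairpin can be kept. In the older naming on this array, the name without a mark is the arm taken as the main product, and an asterisk marks the partner. miR-140 is known from cartilage, where the factor SOX9 drives it, and mice without it have short bones and joint damage. It lies in Wwp2, a gene for a ubiquitin ligase. miR-455 lies in Col27a1, a gene for a fibrillar collagen of cartilage, and is also studied in chondrocytes. In peripheral nerve, fibroblasts, perineurial cells and Schwann cells all make collagen after injury.

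The mature sequences are shown because the seed decides which messages a miRNA can pair with, and because both arms of the miR-140 hairpin were measured. All were taken from RefSeq, build GRCr8. Both hairpins are on the plus strand, Mir455 at chr5:81704834-81704911 inside the span of Col27a1 and Mir140 at chr19:52375293-52375391 inside the span of Wwp2. Col27a1 and Wwp2 run in the same direction as their hairpins. Exons and introns were not looked up. The array name rno-miR-455 gives no arm. RefSeq holds 1 mature sequence for Mir455, the 3′ arm at chr5:81704881-81704902, and whether the array's probe reads that arm was not settled. The older name miR-140 stands for the 5′ arm, at chr19:52375314-52375335, and miR-140* for the 3′ arm, at chr19:52375353-52375373. Seeds are in capitals in the mature sequences.
rno-miR-455-3p: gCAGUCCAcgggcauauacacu
rno-miR-140-5p: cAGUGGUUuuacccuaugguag
rno-miR-140-3p: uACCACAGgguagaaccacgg
The hairpins show where these lie, with the mature arms in capitals.
Mir455: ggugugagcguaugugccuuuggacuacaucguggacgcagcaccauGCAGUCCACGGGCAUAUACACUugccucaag
Mir140: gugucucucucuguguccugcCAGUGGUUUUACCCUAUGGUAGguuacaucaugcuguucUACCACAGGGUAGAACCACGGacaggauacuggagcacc
The 3 seeds differ from each other, and 0 of the other mature miRNAs in the 693 names of the RefSeq table share one of them. miR-140 and miR-140* come from 1 hairpin, so they share a transcript but not a seed.

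Levels are log2 of background-subtracted intensity divided by each array's 75th percentile, so 1 unit is a 2-fold difference and negative levels lie below that percentile. miR-455 was read by 1 probe with up to 20 spots, each miR-140 arm by 2 probes. Of the 350 miRNAs, 231 were tested because some group had them detected on each of its 3 arrays, and all 3 miRNAs described here were among them. The arrays detected between 200 and 239 miRNAs, except day 14 replicate 3 with 172. That array also had the noisiest negative control spots (SD of 10.8 intensity units, against 2.08 to 4.25 elsewhere). Day 1 arrays had bright corner control spots of 82.7 to 107 intensity units, against 834 to 2549 on the other arrays. No spot was saturated. Days 0, 1 and 4 each had a slide of their own, so slide and group cannot be told apart there. Days 0 and 1 were also each scanned on a day of their own. Day 14 replicate 3 was alone on its slide and its scan day, apart from the other day 14 arrays. In whole nerve, fewer cells of a type and less RNA per cell cannot be told apart.

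miR-455 stood highest on day 14 and near background before day 4. On day 0 its intensities were 14.6, 16.9 and 17.6 for replicates 1, 2 and 3, and on day 1 they were 11.6, 12.6 and 10.2. At most 1 spot per array was well above background on these 6 arrays, and the software detected miR-455 on 2 of 3 arrays on day 0 and on 1 of 3 on day 1. It was therefore not well above background at either time, and no difference between them is given. On day 4 its intensities were 18.9, 18.1 and 19.6, with 17 to 20 spots per array well above background. The day 4 arrays were also less noisy. Their negative control spots had SDs of 2.08, 2.10 and 2.35, against 4.25, 3.71 and 3.20 on day 0. The part of this lower noise in the number of spots that passed was not tested. On day 7 the intensities of miR-455 were 31.3, 33.1 and 35.5, and on day 14 they were 64.9, 46.5 and 60.5. All arrays of days 4, 7 and 14 detected miR-455. On day 14 replicate 3, the noisy array, 0 of 18 spots passed as well above background although the intensity there was among the higher ones.

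After scaling, the mean level of miR-455 was -5.24 ± 0.18 on day 0, -5.62 ± 0.12 on day 1, -4.88 ± 0.06 on day 4, -4.32 ± 0.06 on day 7 and -3.83 ± 0.08 on day 14 (SD, n = 3). Single levels were -5.45, -5.16 and -5.12 on day 0 and -5.65, -5.48 and -5.71 on day 1, in replicate order. They were -4.91, -4.92 and -4.81 on day 4, then -4.39, -4.29 and -4.28 on day 7, and -3.81, -3.75 and -3.92 on day 14. From day 4 on, no array of one time overlapped an array of another. Measured against day 0, miR-455 was higher by 0.36 ± 0.10 on day 4, by 0.92 ± 0.10 on day 7 and by 1.42 ± 0.10 on day 14 (log2 difference ± standard error of the limma fit). Because the day 0 probe was at background, these differences rest on a level with only an upper bound. Set against the lowest miRNA well above background on each day 0 array, or its own level where higher (a mean of -4.73), miR-455 was at least 1.33-fold higher on day 7 and at least 1.87-fold higher on day 14. Its measured mean on day 4, -4.88, lay under that bound, so no fold is given.

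The differences between the later times do not use days 0 and 1, but their standard errors pool the spread of all 15 arrays. Day 4 was itself dim, with intensities of 18.1 to 19.6 against 14.6 to 17.6 on day 0. miR-455 was 1.48-fold higher on day 7 than on day 4, a log2 difference of 0.56 ± 0.10, and 1.41-fold higher on day 14 than on day 7, a difference of 0.49 ± 0.10. Among the 231 miRNAs, these differences ranked 3 and 11 from the top. Day 7 and replicates 1 and 2 of day 14 shared a slide, and within that slide day 14 lay 0.54 above day 7. With 4 other scalings of the arrays both steps stayed positive, between 0.61 and 0.89 for day 7 minus day 4 and between 0.49 and 0.77 for day 14 minus day 7. With normexp background correction, whose offset of 50 exceeds most intensities of miR-455, they were 0.028 and 0.14.

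**Figure D1:**
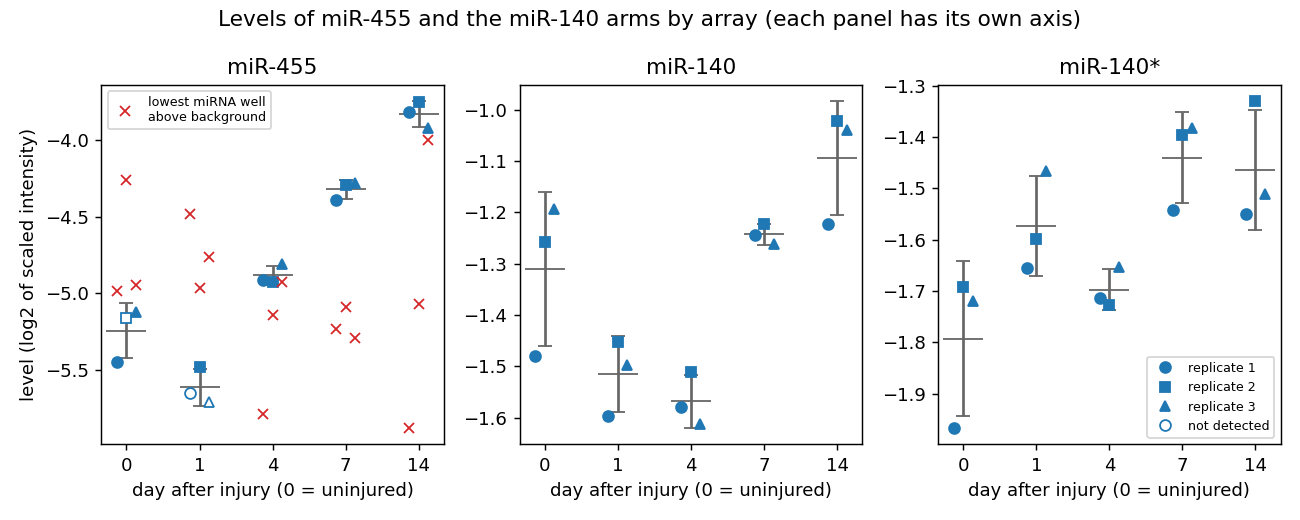
Level of miR-455, miR-140 and miR-140* (log2 of scaled intensity, y axis) on each array by day after injury (x axis, not to scale), with bars for the mean and SD of 3 arrays, open points where the software did not detect the miRNA, and crosses for the lowest miRNA well above background on each array. miR-455 stands at -5.24 on day 0 and -3.83 on day 14, and crosses lie above its points on all arrays of days 0 and 1, whereas both miR-140 arms stay between -1.97 and -1.02.

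miR-140, the 5′ arm, was detected on all 15 arrays, with every spot well above background. Its levels were -1.48, -1.26 and -1.19 on day 0. On day 1 they were -1.60, -1.45 and -1.50, and on day 4 they were -1.58, -1.51 and -1.61. On day 7 they were -1.24, -1.22 and -1.26, and on day 14 they were -1.22, -1.02 and -1.04. All day 4 levels lay below all day 0 levels, and day 1 overlapped day 0. Days 7 and 14 overlapped day 0 too.

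The order of the means for miR-140 was day 4 (-1.57), day 1 (-1.52), day 0 (-1.31), day 7 (-1.24) and day 14 (-1.10). The arrays of every pair of neighbours in this order overlapped. Days 4 and 1 differed by 0.05 ± 0.09, and days 7 and 14 by 0.15 ± 0.09. Against day 0, the log2 difference was -0.20 on day 1, -0.26 on day 4, 0.07 on day 7 and 0.22 on day 14, each ± 0.09. The early differences depended on the scaling: the day 4 difference was negative with 2 of 5 scalings and the day 1 difference with 3 of 5. With the 75th percentile over all miRNAs, for example, the day 4 difference was 0.06, and with quantile normalization it was 0.24. The median of all tested miRNAs was itself shifted by -0.26 on day 4 with the scaling used here, by 0.05 with the percentile over all miRNAs and by -0.41 without scaling. With the scaling used here, miR-140 on day 4 therefore differed from day 0 by as much as the median miRNA did. The step from day 4 to day 7, 0.33 ± 0.09, had no overlap between arrays and was positive with 5 of 5 scalings, at 0.58 without scaling and 0.15 in the deposited table. Without day 14 replicate 3, which changes the miRNAs that set the scale, the difference from day 0 was 0.01 on day 1, -0.11 on day 4 and 0.23 on day 7.

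miR-140*, the 3′ arm, was also detected on all 15 arrays. Its levels were -1.97, -1.69 and -1.72 on day 0. They were -1.65, -1.60 and -1.47 on day 1 and -1.71, -1.73 and -1.65 on day 4. On day 7 they were -1.54, -1.40 and -1.38, and on day 14 they were -1.55, -1.33 and -1.51. Every array of days 1, 7 and 14 lay above every array of day 0, and day 4 overlapped day 0. Day 0 replicate 1 was the lowest array of its group for all 3 miRNAs.

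The order of the means for miR-140* was day 0 (-1.79), day 4 (-1.70), day 1 (-1.57), day 14 (-1.46) and day 7 (-1.44). The arrays of every pair of neighbours in this order overlapped, with differences of 0.10 ± 0.10 between days 4 and 0, of 0.13 ± 0.10 between days 1 and 4 and of 0.02 ± 0.10 between days 7 and 14. Against day 0, miR-140* was higher by 0.22 on day 1, 0.10 on day 4, 0.35 on day 7 and 0.33 on day 14, each ± 0.10. These differences were positive with 5 of 5 scalings on days 1, 7 and 14 and with 4 of 5 on day 4. The step from day 4 to day 7 was 0.26 ± 0.10, with no overlap, and positive with 5 of 5 scalings, at 0.51 without scaling. Without day 14 replicate 3, the differences from day 0 were 0.43 on day 1, 0.24 on day 4, 0.51 on day 7 and 0.45 on day 14.

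The probes of each arm gave like differences from day 0 but not like levels. On day 0 the 2 probes of miR-140* stood at -2.81 and -1.20, so the brighter one weighs more in its level. Those of miR-140 stood at -1.47 and -1.16. The 2 probes of miR-140 differed from day 0 by -0.28 and -0.24 on day 4 and by 0.18 and 0.24 on day 14. The 2 probes of miR-140* differed by 0.27 and 0.20 on day 1 and by 0.34 and 0.33 on day 14. Between spots of 1 probe on 1 array, the median coefficient of variation was 3.64% to 6.17% for these 4 probes and 13.3% for the probe of miR-455. Before scaling, the mean intensity of miR-140 was 249.8 on day 0, 196.0 on day 1, 187.8 on day 4, 280.8 on day 7 and 381.9 on day 14. That of miR-140* was 178.8, 188.2, 171.6, 245.3 and 294.2.

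**Figure D2:**
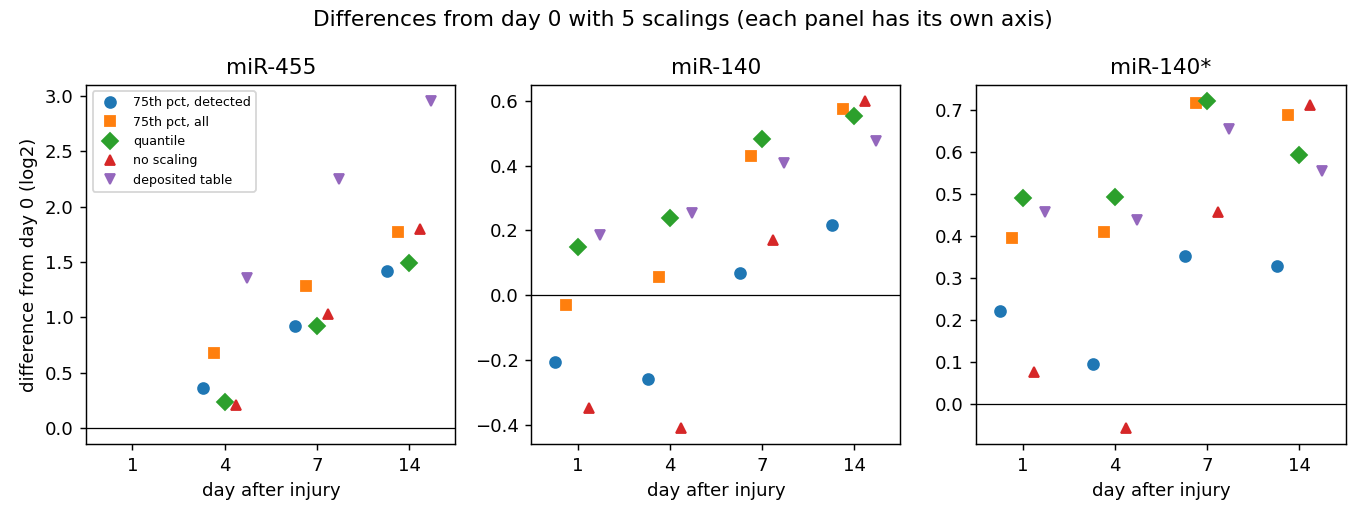
Log2 difference from day 0 (y axis) of miR-455, miR-140 and miR-140* by day after injury (x axis) with 5 ways of scaling the arrays (symbols), day 1 of miR-455 left out because both groups were near background. miR-455 lies above 0 at each time drawn, whereas miR-140 lies on both sides of 0 on day 1 and day 4, with -0.26 and 0.24 among its day 4 values.

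Counting the 3 miRNAs by overlap alone, 1 was higher and 1 lower than day 0 without overlap on day 1, where 15.6% of all tested miRNAs were higher and 38.1% lower in that way. The lower one was miR-455, which was near background in both groups. On day 4, 1 was higher (background 25.1%) and 1 lower (background 51.9%). The higher one was miR-455, whose day 4 mean lay under the bound of its day 0 level, so this count shows no rise. On day 7, 2 were higher (background 20.3%) and 0 lower (background 54.1%). On day 14, 2 were higher (background 16%) and 0 lower (background 46.8%). From day 4 to day 7, all 3 were higher (background 17.7% higher, 32.9% lower). From day 7 to day 14, miR-455 alone was higher (background 15.6% higher, 22.5% lower). From day 1 to day 4, miR-455 alone was higher (background 28.6% higher, 32% lower), from a level near background. By adjusted p in limma, 27.7% of tested miRNAs rose and 24.7% fell from day 1 to day 4, 1.73% rose and 5.19% fell from day 4 to day 7, and 5.19% rose and 9.52% fell from day 7 to day 14. The members were chosen with these values known and nothing is read from the counts.

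The miR-140 arms can be compared within an array, where dividing the whole array by 1 number cancels. Different probes bind with different strength, so the size of the difference on one array has no meaning of its own and only its change over time is described. The comparison was added after the values were seen. miR-140 minus miR-140* was 0.49, 0.44 and 0.53 on day 0 (log2, in replicate order). It was 0.06, 0.15 and -0.03 on day 1, then 0.13, 0.22 and 0.04 on day 4. On day 7 it was 0.30, 0.17 and 0.12, and on day 14 it was 0.33, 0.31 and 0.47. All arrays of days 1, 4 and 7 lay below all arrays of day 0, and day 14 overlapped day 0.

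Compared with day 0, the arm difference was smaller by 0.43 on day 1, 0.35 on day 4, 0.29 on day 7 and 0.11 on day 14, each ± 0.07. As a ratio, miR-140 over miR-140* was at 74.5% of its day 0 value on day 1, 78.3% on day 4, 82.1% on day 7 and 92.4% on day 14. The 4 pairings of the 2 probes of each arm gave changes between -0.47 and -0.41 on day 1, between -0.39 and -0.33 on day 4, between -0.30 and -0.27 on day 7 and between -0.16 and -0.08 on day 14. A change of this size was common among hairpins. Of the 33 hairpins with both arms tested, 63.6% had no overlap with day 0 in either direction on day 1, 72.7% on day 4, 63.6% on day 7 and 48.5% on day 14. By the size of its change, miR-140 ranked 13 of 33 on day 1, 17 on day 4, 20 on day 7 and 27 on day 14.

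**Figure D3:**
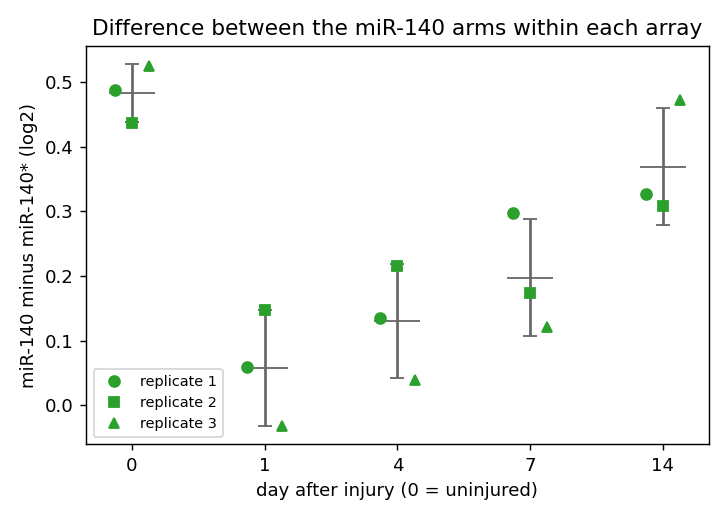
Log2 level of miR-140 minus that of miR-140* within each array (y axis) by day after injury (x axis, not to scale), with bars for the mean and SD of 3 arrays. The day 0 arrays lie between 0.44 and 0.53, the day 1 arrays between -0.03 and 0.15, and the day 14 arrays between 0.31 and 0.47.

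Over the 15 arrays, the level of miR-455 had Pearson's r of 0.74 with miR-140 and 0.59 with miR-140*, and the miR-140 arms had r of 0.54 with each other. The points share 5 groups and the scaling of each array, so these values describe common movement of groups and no p is given. The miRNAs most like miR-455 were miR-199a-5p (r of 0.90), miR-106b (0.89) and miR-335 (0.88). On the 6 arrays of days 0 and 1 miR-455 was not well above background, so part of the course that these values, and those between the members, rest on is background. Those most like miR-140 were miR-181d (0.86), miR-872 (0.81) and miR-542-5p (0.80). Those most like miR-140* were miR-142-5p (0.72), miR-142-3p (0.71) and miR-106b (0.70). The partner arms of the miR-140 hairpin thus had different nearest miRNAs. The miR-142 arms are known from blood cells, and both were in the leukocyte list. The rest of that list took other courses. miR-223 stood 1.79 above day 0 on day 1 and 0.21 above it on day 14. miR-150 fell by 0.60, 0.73 and 0.69 on days 4, 7 and 14. Which cells the miR-140* signal came from was not tested.

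Other miRNAs known from connective tissue and collagen give the setting for miR-455 and miR-140. A list of 12, all on the array and all tested, was taken: the miR-29 family, which targets collagen messages, miR-21, which is induced in many fibrotic tissues, the miR-199a and miR-214 cluster, miR-143 and miR-145 of smooth muscle, miR-152, miR-218 and miR-335. By limma with Benjamini-Hochberg adjustment over the 231 miRNAs, 3 rose and 6 fell on day 1, 5 rose and 5 fell on day 4, 6 rose and 4 fell on day 7, and 5 rose and 4 fell on day 14. Of all tested miRNAs, 16.9% rose and 44.2% fell on day 1, 20.3% and 45.9% on day 4, 17.3% and 46.3% on day 7, and 16% and 50.6% on day 14. The list's median difference was -0.32, -0.10, 0.12 and 0.09 at these times, against -0.24, -0.26, -0.32 and -0.37 over all tested miRNAs. All 4 comparisons share the day 0 arrays. The list's median depended on the scaling. On day 4 it was 0.22 with the percentile over all miRNAs, 0.26 with quantile normalization, 0.22 in the deposited table and -0.25 without scaling. On day 14 the other scalings gave 0.44 to 0.52 for the list and -0.12 to 0.02 for all tested miRNAs, with 6 to 7 of the list risen and 3 to 5 fallen.

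miR-21 rose by 2.68 ± 0.12 on day 14 (adjusted p = 4.1e-10 by limma), from a level of 1.98 ± 0.14 to 4.66 ± 0.17 (SD, n = 3), and it had already risen by 3.19 on day 7. Its course differed from that of miR-455 in the last step: miR-21 fell by 0.51 ± 0.12 from day 7 to day 14 (adjusted p = 0.012 by limma), where miR-455 was higher by 0.49. That call of miR-21 was lost without scaling, with quantile normalization and in the deposited table. Over all 10 settings other than leaving out arrays, kept or lost, the difference of miR-21 lay between -0.61 and 0. The call was also lost without day 7 replicate 2, with adjusted p = 0.064 by limma. miR-335, an intronic miRNA of the imprinted gene Mest, fell by 0.56 on day 1 and rose by 0.51 ± 0.13 from day 4 to day 7 (adjusted p = 0.027 by limma), the 1 miRNA of the list to pass in that step. The call was lost without any one array of day 7, or without day 4 replicate 1 or 2, with adjusted p up to 0.15 and differences of 0.41 to 0.64. It was also lost with no filter and with normexp, where adjusted p reached 0.098 and the difference came down to 0.31. miR-199a-5p and miR-214 fell by 0.58 and by 0.59 on day 1 and then rose, by 0.58 and 0.73 on day 7 and by 0.57 and 0.48 on day 14 against day 0. miR-29b rose by 1.01 on day 4 and by 0.57 on day 14. miR-29a passed with 0.32 on day 4 and 0.28 on day 7, and its 0.20 on day 14 did not pass. miR-29c passed at no time and stood at -0.25 on day 14. miR-218, miR-152, miR-145 and miR-143 fell on day 14, by 1.06, by 0.75, by 0.76 and by 0.65. miR-145 had risen by 0.59 on day 1. miR-199a-3p, the partner arm of miR-199a-5p, fell by 0.80 on day 1 and differed by -0.03 on day 14, which did not pass.

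**Figure D4:**
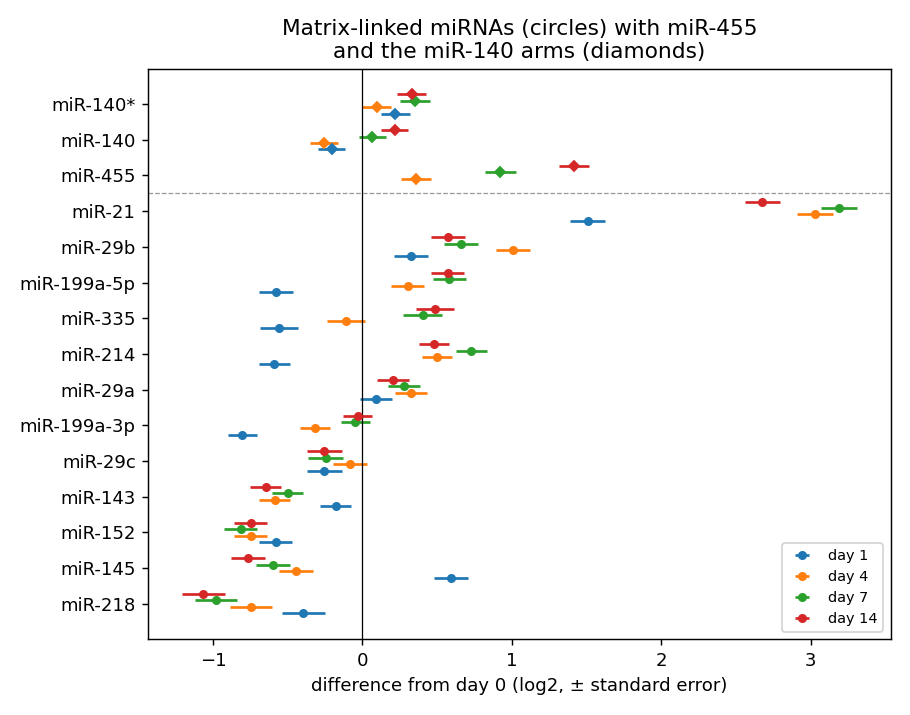
Log2 difference from day 0 with its standard error (x axis) for the 12 miRNAs of the connective tissue list (circles) and for miR-455 and the miR-140 arms (diamonds) on days 1, 4, 7 and 14 (colours), with day 1 of miR-455 left out because both groups were near background. miR-21 lies at 2.68 on day 14, miR-455 at 1.42 (against a day 0 level that is itself near background), and miR-140 and miR-140* at 0.22 and 0.33.

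Of a list of 11 other miRNAs studied in cartilage, 10 were on the array and tested. On day 1, 1 rose (miR-145) and 7 fell, where 16.9% of all tested miRNAs rose and 44.2% fell. On days 4, 7 and 14, 0 rose, and 9, 8 and 6 fell (limma, adjusted over all tested miRNAs). Of all tested miRNAs, 20.3%, 17.3% and 16% rose and 45.9%, 46.3% and 50.6% fell at these times. The list's median difference was -0.36 on day 1, -0.66 on day 4, -0.64 on day 7 and -0.65 on day 14, against -0.24, -0.26, -0.32 and -0.37 over all tested miRNAs. With the other scalings, 1 rose and 3 to 8 fell on day 1, with a median between -0.51 and -0.080. On day 4, 0 to 2 rose and 6 to 10 fell, and on day 7, 0 to 2 rose and 6 to 7 fell. On day 14, 1 to 4 rose and 5 to 6 fell, with a median between -0.39 and -0.27. On day 7, miR-98 fell by 0.86, miR-9 by 1.07, miR-125b-5p by 1.00 and miR-22 by 0.69. miR-98, of the let-7 family, is close in sequence to other let-7 members, so its probe may also read them.

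miR-140 and miR-455 were also set beside 33 other miRNAs counted as intronic from general knowledge, of which 32 were on the array and 26 were tested. In the RefSeq table, 19 of the 33 matched a hairpin by name and 17 of these lay inside a protein-coding gene on the same strand. Of the 26 tested, 1 rose and 17 fell on day 1, 3 rose and 16 fell on day 4, 4 rose and 16 fell on day 7, and 6 rose and 18 fell on day 14. Over all tested miRNAs, 16.9%, 20.3%, 17.3% and 16% rose and 44.2%, 45.9%, 46.3% and 50.6% fell at these times. The median difference of the 26 was -0.47, -0.58, -0.45 and -0.56, against -0.24, -0.26, -0.32 and -0.37 over all tested miRNAs. With the other scalings, 0 to 4 rose and 11 to 19 fell on day 1, 2 to 5 rose and 13 to 17 fell on day 4, and 4 to 8 rose and 11 to 15 fell on day 7. On day 14, 6 to 7 rose and 8 to 13 fell, with a median between -0.28 and -0.17. On day 7, miR-26b fell by 1.15, miR-107 by 1.06, miR-148b-3p by 1.11 and miR-33 by 1.69. The mean level of miR-33 was -5.07 on day 0 and -6.76 on day 7. Both levels lay under -4.73, the mean of the lowest miRNA well above background on each day 0 array. Whether miR-33 fell, as called by limma, and by how much is therefore not settled. The connective tissue list shares miR-152, miR-218 and miR-335 with this list, and miR-145 and miR-199a-3p with the cartilage list.

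Marker miRNAs of other cell types also differed in level between times. The summed scaled level of 4 leukocyte markers was 1.42 to 1.69 on day 0, 2.94 to 4.05 on day 1, 2.63 to 2.99 on day 4, 2.66 to 2.95 on day 7 and 1.89 to 2.51 on day 14. Of these 4, 3 rose on days 1, 4 and 7 and 2 on day 14, by limma. The fourth, miR-150 of lymphocytes, fell on days 4, 7 and 14, by 0.60, by 0.73 and by 0.69. Of all tested miRNAs, 16.9%, 20.3%, 17.3% and 16% rose on days 1, 4, 7 and 14. On days 4, 7 and 14, 45.9%, 46.3% and 50.6% fell. For 4 smooth muscle and fibroblast markers the summed level was 9.16 to 10.4 on day 0, 6.67 to 7.41 on day 1, 7.64 to 8.28 on day 4, 8.82 to 9.39 on day 7 and 8.47 to 8.91 on day 14. For 4 markers of myelinating glia it was 16.9 to 25.9 on day 0, 11.1 to 14.7 on day 1, 8.73 to 10.2 on day 4, 8.90 to 9.78 on day 7 and 10.3 to 13.9 on day 14. miR-338, miR-138 and miR-204 of that list, known from Schwann cells, were detected on all 15 arrays, and miR-211 on 11. All 4 fell on day 14, by limma, where 50.6% of all tested miRNAs fell. The mean of miR-211 was -5.85 on day 0, which is near background. Of the smooth muscle and fibroblast markers, miR-214 rose and miR-143 and miR-145 fell on day 14. The leukocyte sum was lower on day 14 than on day 7. Of its 4 markers, miR-223 alone passed in that step, with a difference of -0.59 (adjusted p = 0.028 by limma).

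Markers of neighbouring tissue varied within day 0. The sum of 4 skeletal muscle markers ran from 0.674 to 16.2 on day 0, from 1.60 to 3.92 on day 1, from 0.416 to 0.524 on day 4, from 0.237 to 0.824 on day 7 and from 0.849 to 2.20 on day 14. The sum of 2 erythrocyte markers ran from 0.734 to 3.98 on day 0, 3.04 to 9.53 on day 1 and 1.17 to 1.37 on day 14. The sum of 3 neuron markers was 0.428 to 0.610 on day 0 and 0.470 to 0.594 on day 1. It was 0.389 to 0.417 on day 4, 0.348 to 0.362 on day 7 and 0.296 to 0.344 on day 14. By limma, 2 of the 3 rose and 1 fell on day 1, where 16.9% of all tested miRNAs rose and 44.2% fell. On day 14, 0 rose and 1 fell, where 16% and 50.6% of all tested miRNAs did. The sum of 2 endothelial markers was 3.16 to 3.45 on day 0 and 2.18 to 2.51 on day 1. On days 4, 7 and 14 it was 2.73 to 3.01, 2.77 to 2.96 and 2.26 to 2.88. Of 6 epithelial markers, 5 were detected on no array and miR-205 on 15 arrays. The liver marker miR-122 was detected on 0 arrays. The part of these cell types in the levels of miR-455, miR-140 and miR-140* was not tested.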

How the data were processed

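Agilent's Feature Extraction software (version 10.7.3.1) gave the deposited spot intensities, per the file headers. They are background-subtracted per spot, with no scaling between arrays. A deposited value table was used only as an alternative. Its values are on a log2 scale, as found by comparison with the deposited intensities, and its normalization is not stated in the sources used here. All its columns have a median of 4.12, except day 14 replicate 3 with 0.834. Identical values recur between its columns, such as 8.106 for miR-140 on day 1 replicate 1 and on day 4 replicates 1 and 3. Whether this table is a check apart from quantile normalization is therefore not settled.

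Control and outlier spots were left out, spots averaged per probe and probes per miRNA. Values of an array were then divided by their 75th percentile over the 164 miRNAs detected on all 15 arrays, floored at 0.00566 and log2-transformed. Group means were fitted in 1 model with limma 3.58.1 in R 4.3.3 (Benjamini-Hochberg adjustment, threshold 0.05), which was tested on simulated data. Tables used Python 3.11.15 and pandas 2.3.3. The number of arrays, 3 per group, limits the precision. The alternatives were other scalings, total gene signal, no filter, normexp background correction (on median spot signals, since mean signals were not in the files used), a replicate block, slide terms and leaving out each array.

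The members, lists and comparisons were chosen with earlier results of these data known. Named are the members, the connective tissue list, up to 4 miRNAs of each other list with the smallest adjusted p, and the 3 miRNAs most correlated with each member.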

Additional observations from a re-analysis of the deposited data

Results flagged for a closer look

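For miR-140, some times lay on opposite sides of the day 0 mean, with every array of one time below it and every array of the other above it. Its difference from day 0 was higher on day 7 than on day 1 by 0.27 and than on day 4 by 0.33, and higher on day 14 than on day 1 by 0.42 and than on day 4 by 0.47 (log2). These differences were not tested, since the miRNA was chosen with its values known, and the side on which days 1 and 4 lie depends on the scaling. On day 1 and day 4, every array had miR-140 below and miR-140* above its own day 0 mean. The change of miR-140 minus that of miR-140* was -0.43 on day 1 and -0.35 on day 4. This was not tested either.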

How the results depend on the processing

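Limits: miR-455 on days 0 and 1 was near background, so its day 1 difference was given no value under any setting. Levels depend on what sets the scale of an array, and slides coincide with groups on days 0, 1 and 4. The cause of each change below was not tested unless it is named. Of 259 values recomputed with other settings (leaving out arrays is given apart), 176 stayed within 1 SD or 1.5 times, 80 moved, and 3 of miR-140 on day 4, whose groups had not overlapped, turned sign.

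Counts of miRNAs past the threshold moved as follows. Day 4 against day 1 gave 121, and 62 with normexp. Day 7 against day 4 gave 16, and 6 without the filter, 29 with the percentile over all miRNAs, 43 without scaling, 33 with quantile normalization and 1 with normexp. Day 14 against day 7 gave 34, and 15 within the shared slide (fewer arrays), 67 with the percentile over all miRNAs, 83 without scaling and 21 in the deposited table.

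For miR-455, the differences from day 0 on days 4, 7 and 14 were 0.67, 1.29 and 1.77 with the percentile over all miRNAs, 1.13, 1.69 and 2.20 with total gene signal, 1.36, 2.25 and 2.95 in the deposited table, and 0.13, 0.16 and 0.29 with normexp. Total gene signal puts arrays without detection at a low constant, the deposited table holds them near 0, and the normexp offset of 50 exceeds most of its intensities. Without scaling, days 4 and 14 gave 0.21 and 1.80, and with quantile normalization day 4 gave 0.23.

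For miR-140 on days 1, 4, 7 and 14, the differences were -0.030, 0.056, 0.43 and 0.57 with the percentile over all miRNAs, 0.15, 0.24, 0.48 and 0.55 with quantile normalization, 0.19, 0.25, 0.41 and 0.48 in the deposited table. Unscaled, miR-140 gave -0.35, -0.41, 0.17 and 0.60. For miR-140* they were 0.39, 0.41, 0.72 and 0.69 with the percentile over all miRNAs, 0.49, 0.49, 0.72 and 0.59 with quantile normalization, and 0.46, 0.44, 0.66 and 0.55 in the deposited table. Without scaling miR-140* gave 0.077 on day 1, -0.057 on day 4 and 0.71 on day 14, and with normexp 0.24 on day 7 and 0.21 on day 14. The change of the arm difference on days 1 and 4 was -0.34 and -0.25 with quantile normalization, -0.27 and -0.18 in the deposited table, and -0.32 and -0.27 with normexp.

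Leaving out each array in turn gave 5 to 19 calls for day 7 against day 4 and 11 to 48 for day 14 against day 7. miR-455 ran from 0.26 to 0.51 on day 4, 0.82 to 1.08 on day 7 and 1.31 to 1.55 on day 14. miR-140 ran from -0.29 to 0.0070 on day 1, -0.34 to -0.11 on day 4 and -0.017 to 0.23 on day 7. miR-140* ran from 0.13 to 0.43, 0.0085 to 0.24, 0.27 to 0.51 and 0.24 to 0.45 on days 1, 4, 7 and 14. The highest value of each of these miRNA ranges came without day 14 replicate 3. Day 7 against day 4 gave 5 calls without day 4 replicate 1, 6 without day 4 replicate 3, 7 without day 7 replicate 1 and 6 without day 7 replicate 2. Day 14 against day 7 gave 15, 11 and 20 without day 7 replicates 1, 2 and 3.

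Same-numbered arrays showed no clear common deviation: over 30 pairs their correlations ran from -0.80 to 0.64, with 8 over 0.1. Over 60 pairs with different numbers they ran from -0.66 to 0.66, with 25 over 0.1. So few arrays per group cannot settle whether the numbers pair the samples. With the replicate block, day 14 against day 7 gave 46 calls, day 7 against day 4 gave 15, and the differences of miR-455, 0.36, 0.92 and 1.42, were the same.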
